A study of Mus musculus with 15 samples.

Results

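Cytosolic ribosomal protein genes were followed across 5 groups of cultured mouse macrophages. The genes were chosen by name: symbols made of Rpl or Rps and a number, with at most a letter a, x or y after it, together with Rplp0, Rplp1, Rplp2 and Rpsa. Of 76 genes so named in the RefSeq table, 42 had a probe set annotated to that gene alone, among 18193 genes of the array that did. Another 27 were found only on probe sets that name several genes, and 7 were on no listed probe set. The 42 measured genes held 20 proteins of the small subunit and 22 of the large one. Of these, 41 were bright enough to be tested, among 13703 such genes. They met the filter on low values on every array, since their lowest value, 5.08 for Rpl14, lay above the highest filter level of 4.52. Rps16 was not tested: its only probe set averaged 3.09 in M0 and 3.42 in M1, below the filter level.

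The ribosome reads mRNA on its small subunit and joins amino acids on its large one, and each subunit is built from ribosomal RNA and a fixed set of proteins, mostly at 1 copy each. Many of their mRNAs begin with an unbroken run of pyrimidines, the 5' terminal oligopyrimidine (TOP) tract, through which mTOR signalling and the RNA-binding protein LARP1 control their translation and stability. MYC is known to drive the production of ribosomes, and several ribosomal proteins that are not built into ribosomes bind MDM2 and so stabilise p53.

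The cells were macrophages grown for 7 days from mouse bone marrow in M-CSF, the growth factor of this lineage, and every group shared that culture. M0 cells were untreated, M1 cells received bacterial lipopolysaccharide and interferon-gamma, and M2 cells received IL-4 and IL-13. Some M2 cells also received nutlin-3a, which blocks the binding of MDM2 to p53, or 10058F4, an inhibitor of MYC. The sources used here do not state strain, age, sex, dose, time of treatment or vehicle. Each group had 3 biological replicates, each read on 1 array, and the labels do not say whether they came from separate mice, so the spread that the p-values rest on may be technical. All 8 macrophage markers looked up (among them Csf1r, Adgre1 and Cd68) lay above the filter level on all 15 arrays; how they and markers of other cell types moved in M1 is given beside that comparison. The values are log2 expression per probe set, so a difference of -1 is a level 2-fold lower. Tests were contrasts of limma's linear model, with Benjamini-Hochberg adjustment over all tested genes and calls at an adjusted p under 0.05. Levels are compared between groups for a gene and not between genes, whose probe sets differ in brightness.

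The region around the annotated start of the gene was looked at for 37 of the 42 members, which RefSeq's promoter table (GRCm38.p6) held. The 30 bases below run from 15 bases before to 15 bases after that start, with the longest pyrimidine run in capitals. Where a gene had several annotated starts, the start with the longest run was taken, here and where members are split by such a run. They are shown for the 4 members that fell most in M1 cells, for the pair that was not called there (Rps24 and Rpl39, picked after their values were seen), for Rpl12, the member called after IL-4 with IL-13, and for Rps6, the target of the S6 kinases.
Rpl10a, chr17:28328456-28328485, plus strand: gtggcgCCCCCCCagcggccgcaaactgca
Rps18, chr17:33955651-33955680, minus strand: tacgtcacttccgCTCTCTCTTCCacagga
Rps7, chr12:28635939-28635968, minus strand: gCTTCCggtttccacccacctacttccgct
Rpsa, chr9:120127751-120127780, plus strand: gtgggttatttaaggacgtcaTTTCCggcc
Rps24, chr14:24490663-24490692, plus strand: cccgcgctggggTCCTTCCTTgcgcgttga
Rpl39, chrX:37085208-37085237, minus strand: cctaagctccgcctctagcgaCTTCTTCTa
Rpl12, chr2:32961697-32961726, plus strand: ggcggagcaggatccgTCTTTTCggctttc
Rps6, chr4:86857353-86857382, minus strand: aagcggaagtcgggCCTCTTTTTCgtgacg

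A run of 7 or more pyrimidines (C or T, on the gene's own strand) lay in this window at 48.84% of the 43 starts of these members, against 18.55% of all 32851 starts in the table. In the wider stretch from 250 bases before to 50 after the start, CTTCCG or its reverse complement CGGAAG lay at 62.79% of the members' starts and 16.85% of all starts. The palindrome CACGTG, the core of the E-box that MYC binds, lay at 11.63% and 7.15%. These motifs can overlap, since CTTCCG holds a short run of pyrimidines. A match describes the letters and is not a bound site, and an annotated start need not be the one these cells use. A pyrimidine run before the start lies outside the annotated mRNA, so a run in this window need not be a TOP tract.

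Nearly the whole set was lower after lipopolysaccharide and interferon-gamma. Of the 41 members, 39 were called lower in M1 than in M0 and none was called higher, with 39.1% of all 13703 tested genes called lower and 33.6% higher. The members' median log2 difference was -1.04, that of all tested genes was 0.00, and 21 members fell by more than 1 on the log2 scale. The values of the 3 M1 arrays lay wholly apart from those of the 3 M0 arrays for 39 members, as they did for 71.3% of all tested genes. The falls were spread over both subunits: 18 of 19 small-subunit members were called lower with a median of -0.92, and 21 of 22 large-subunit members with a median of -1.08. In RNA from whole cultures, fewer cells of a type and less of this RNA per cell cannot be told apart.

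Markers of cell types moved in the same comparison. Of the 8 macrophage markers, 3 were higher in M1 than in M0 (Fcgr1 by 1.98, Mertk by 0.74 and Adgre1 by 0.45) and 3 lower (Cd68 by 1.41, Csf1r by 0.74 and Lyz2 by 0.44). The log2 of their summed level was 15.55 to 15.59 on the M1 arrays and 15.78 to 15.82 on the M0 arrays. Of 4 dendritic markers, 2 were higher, Xcr1 by 2.503 and Ccr7 by 1.59, and the list's summed level was 7.34 to 7.95 in M1 and 6.59 to 6.76 in M0. Of 5 tested neutrophil markers, 3 were higher and 1 lower, with a summed level of 8.77 to 8.97 against 8.75 to 8.83. All 3 tested markers of T and NK cells were higher, by 0.37 to 0.59 (summed level 6.96 to 7.05 against 6.44 to 6.63), as were both tested B-cell markers, by 0.37 and 0.48 (6.36 to 6.56 against 6.06 to 6.22). Of the tested stromal, mast and erythroid markers, 1 mast-cell gene was higher and none was lower. The T and NK list had medians of 4.53 to 4.72 on the M0 arrays and 5.03 to 5.22 on the M1 arrays. The B-cell list had 4.40 to 4.67 and 4.69 to 5.06. These lie near the filter levels, 4.34 to 4.385 in M0 and 4.47 to 4.52 in M1. Non-member genes with a mean up to 8 had a median difference of 0.12 between M1 and M0. Whether T, NK or B cells were present was not tested. The part of the cell types above in the members' fall was not tested either.

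**Figure D1:**
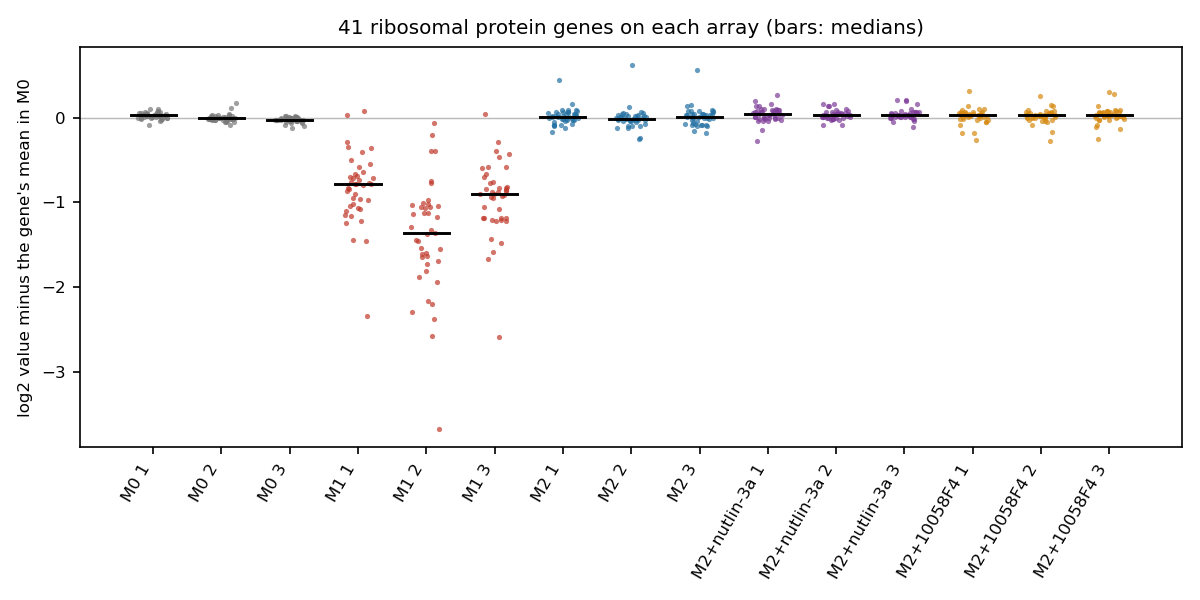
Each point is 1 of 41 ribosomal protein genes on 1 array, as the log2 value minus that gene's mean over the M0 arrays (vertical axis); arrays stand along the horizontal axis in their groups and bars are medians. The medians of the M1 arrays are -0.78, -1.36 and -0.90, and the single M2 points well above 0 belong to Rpl12.

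The 3 M1 arrays did not fall equally far. The median of the members' values was 11.69 on M1 replicate 1, 11.09 on replicate 2 and 11.61 on replicate 3, against 12.72 to 12.75 on the M0 arrays. M1 replicate 2 held the lowest M1 value of 38 of 41 members, whereas it held the lowest for 35.6% of all tested genes. The median over members of replicate 2 minus the mean of the other M1 replicates was -0.54. The same quantity was 0.03 for 165 other genes with a mean above 12 and 0.02 for all tested genes. It was -0.17 for 16 translation factors and other genes whose mRNAs carry a TOP tract. The members' median standard deviation among the arrays of a group was 0.321 in M1, against 0.0340 in M0, 0.0344 in M2, 0.0237 in the nutlin-3a group and 0.0223 in the 10058F4 group. For those 165 other bright genes it was 0.0849 in M1 and 0.0504 in M0. The fit takes a single spread per gene over all groups. For genes that vary more in M1, the standard errors and p-values of M1 comparisons are smaller than the spread of the M1 arrays warrants. Fitted on the arrays of the 2 groups alone, 39 members were called lower in M1 than in M0. That fit called 4915 of all 13703 tested genes lower and 3966 higher. Without M1 replicate 2, the members' median was -0.85 and 39 were again called lower, with 5573 of all tested genes lower and 4738 higher. The log2 difference between the 3' and the 5' control probe set of beta-actin, a measure of RNA integrity, was 0.13, 0.22 and 0.18 on M1 replicates 1 to 3 and 0.29 to 0.39 on the M0 arrays. For Gapdh the same difference was -0.17, -0.12 and -0.19 on the M1 arrays and -0.29 to -0.26 on the M0 arrays, so that the M1 arrays were lower by actin and higher by Gapdh. The part of RNA integrity in the result was not tested.

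The largest fall was that of Rpl10a, a protein of the large subunit's L1 stalk beside the exit site for tRNA. Its log2 values were 12.83, 12.76 and 12.81 in M0 and 10.46, 9.12 and 10.22 in M1. The lowest M0 array stood more than 2 log2 units above the highest M1 array, and the difference was -2.87 (SE 0.23, adjusted p = 4.3e-08), or 7.30-fold. Rps18, in the head of the small subunit, measured 12.69, 12.68 and 12.62 in M0 and 11.22, 10.09 and 10.995 in M1. The groups did not overlap and the difference was -1.90 (SE 0.19, adjusted p = 6.66e-07). Rps7, a small-subunit protein that also binds MDM2, measured 12.93, 12.89 and 12.87 in M0 and 11.67, 10.61 and 11.41 in M1, a difference of -1.67 (SE 0.18, adjusted p = 1.23e-06). Rpsa, the small-subunit protein also known as the laminin receptor, measured 12.30, 12.26 and 12.30 in M0 and 10.83, 10.35 and 10.70 in M1. Its M1 arrays lay closer together than those of the other 3 genes, and its difference of -1.66 (SE 0.09) had the smallest adjusted p of the 4, 1.02e-09.

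Members with known roles outside the ribosome, or whose regulation is well studied, were all lower. Rps6 measured 8.46, 8.37 and 8.35 in M0 and 7.24, 6.79 and 7.19 in M1, a difference of -1.32 (SE 0.10, adjusted p = 2.31e-08). Rps19, mutated in Diamond-Blackfan anaemia, fell by 1.47. Rpl38, needed in mice for the translation of certain Hox mRNAs, fell by 1.10, and Rps25, needed for initiation at internal ribosome entry sites, fell by 0.89. Rpl13a, which leaves the ribosome in interferon-gamma-treated monocytes to silence inflammatory mRNAs, measured 13.17, 13.12 and 13.08 in M0 and 12.44, 11.99 and 12.36 in M1, a difference of -0.86 (SE 0.09, adjusted p = 9.28e-07). Rpl22, an RNA-binding protein of the large subunit, fell by 1.24 (SE 0.08, adjusted p = 3.57e-09), from 12.87 to 12.89 on the M0 arrays to 11.43 to 11.80 on the M1 arrays. For each of these genes all 3 M1 arrays were below all 3 M0 arrays. Rpl10 was not analysed here.

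Of 8 ribosomal proteins listed for binding MDM2, Rpl11, Rps7, Rps3 and Rps14 were measured and all 4 were lower in M1, with a median of -1.18. Rpl11, which binds MDM2 together with Rpl5 and the 5S ribosomal RNA, measured 12.67, 12.57 and 12.57 in M0 and 11.63, 10.97 and 11.52 in M1 (difference -1.23, SE 0.12, adjusted p = 5.36e-07). Rps14 fell by 1.14 and Rps3, which lies at the mRNA entry channel, by 0.88. Mdm2 itself was 1.84 higher in M1 than in M0 (SE 0.09, adjusted p = 2.82e-10). Of the stalk proteins that recruit the GTPases of translation, Rplp0 fell by 0.92 (SE 0.06, adjusted p = 2.68e-09) and Rplp2 by 1.08 (SE 0.14, adjusted p = 6.44e-06). Rplp0 was among the steadiest members, at 13.10 to 13.11 on the M0 arrays and 12.08 to 12.27 on the M1 arrays. Rpl12, at the base of the same stalk, fell by 0.91.

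A few members were not called or fell little. Rps24, a small-subunit protein, measured 13.32, 13.29 and 13.28 in M0 and 13.32, 13.10 and 13.34 in M1. The M1 values lay on both sides of the M0 values, and the difference was -0.05 with a 95% interval of -0.19 to 0.10 (adjusted p = 0.545). The gene has 6 probe sets of its own and none of them was called, whereas of all 87 tested probe sets of the members 74 were called lower and 3 higher (of all tested probe sets, 37.5% were lower and 31.5% higher). Rpl39, which lines the exit tunnel for new proteins, measured 6.64, 6.63 and 6.62 in M0 and 6.71, 6.56 and 6.05 in M1; only replicates 2 and 3 were below M0, and the difference was -0.19 with an interval of -0.45 to 0.07 (adjusted p = 0.17). The only probe set of Rpl39 is dim and its M1 arrays had a standard deviation of 0.35, so the missing call does not show that the gene held its level. The smallest called falls were 0.32 for Rps29 and 0.40 for Rpl41, the shortest ribosomal protein. Rps29 went from 13.82 to 13.83 in M0 to 13.43 to 13.54 in M1, and Rpl41 from 13.30 to 13.32 to 12.85 to 12.97, so that their groups lay apart although the changes were small. Rps20 and Rpl27a followed, with falls of 0.60 and 0.61. Rps29, Rps24 and Rpl41 are among the brightest members, with means of 13.77, 13.3 and 13.26 over all arrays. The 7 members with a mean above 13 had a median difference of -0.82, and the 24 with a mean of 12 to 13 one of -1.12. Other genes of these levels had medians of -0.30 and -0.24. The part of brightness in the small falls was not tested.

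**Figure D2:**
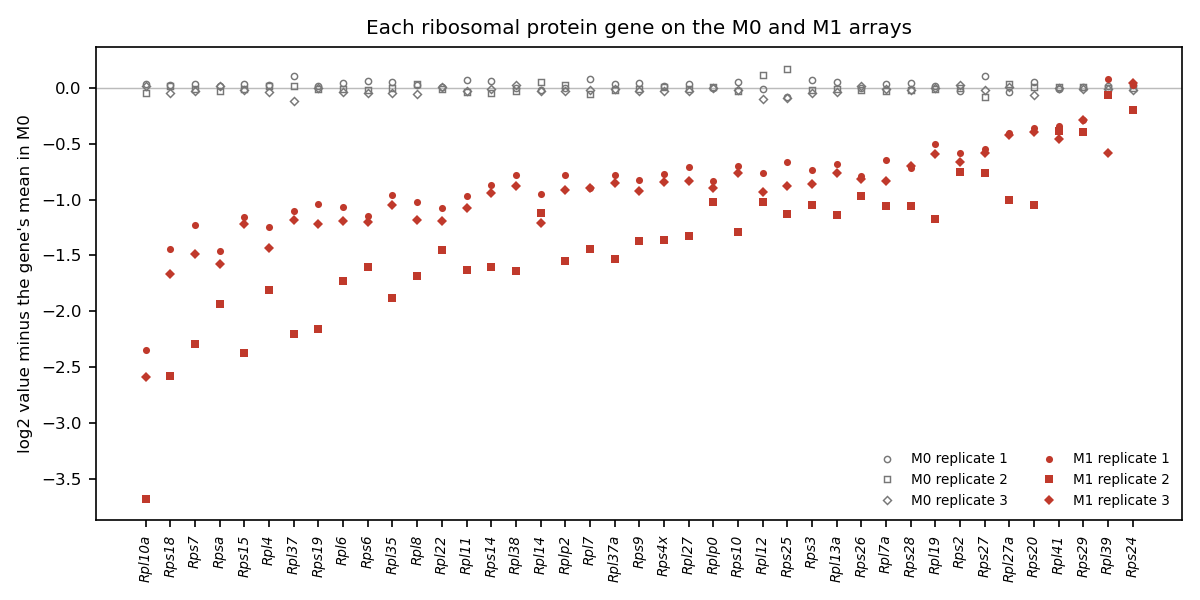
Log2 values of each of 41 members minus the gene's mean in M0 (vertical axis), with genes ordered from left to right by their mean M1 value; open grey marks are the 3 M0 arrays and filled red marks the 3 M1 arrays. Rpl10a lies lowest at -2.87 on average, M1 replicate 2 (squares) is below the other M1 replicates for 38 genes, and only Rpl39 and Rps24 overlap M0.

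The other members filled the range between. Log2 differences below -1 were also found for Rps15 (-1.58), Rpl4 (-1.50), Rpl37 (-1.50), Rpl6 (-1.33), Rpl35 (-1.30), Rpl8 (-1.30), Rpl14 (-1.09), Rpl7 (-1.08), Rpl37a (-1.06) and Rps9 (-1.04). Rps15 lies near the decoding site, and Rpl4 lines the exit tunnel. Smaller differences, from -0.99 for Rps4x to -0.63 for Rps27, were found for Rpl27, Rps10, Rps26, Rpl7a, Rps28, Rpl19 and Rps2 as well. With the second brightest probe set of the gene, Rps4x was instead higher in M1 by 0.22 (adjusted p = 0.0233, limma), and Rps9 lay at 0.35, not called. Among bright probe sets, the 31 members with a mean above 12 had a median difference of -1.06, and the 165 other genes of that brightness a median of -0.26. Of the 36 tested members in the promoter table, 21 had a run of 7 or more pyrimidines within 15 bases of the start. Their median difference was -0.92, and that of the 15 without was -1.06. Rpl10a and Rps24, at the opposite ends of the set, both carry such a run, as the sequences above show. In Rpl10a the run ends before the annotated start.

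The size of the fall depends on what is taken as the array's level. After RMA the median of the tested genes was 6.73 to 6.82 on the M1 arrays and 7.05 to 7.14 on the M0 arrays. When each array was centred on that median, a step chosen after seeing the data, the median difference of all tested genes became 0.32 and that of the members -0.71. Then 35 members were lower and Rps24 was higher (0.28, adjusted p = 0.0049 by limma), Rps20, Rpl27a, Rpl41 and Rps29 lost their calls (Rps29 at 0.00), and of all tested genes 7619 were higher and 3505 lower.

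M1 cells were also lower than M2 cells, a comparison that uses the same M1 arrays. There 39 members were called lower and none higher (of all tested genes 36.5% were lower and 28.1% higher), the median was -0.997, and Rps24 and Rpl39 were again the uncalled pair. Rpl10a differed by -2.81, Rps18 by -2.03, Rps7 by -1.70 and Rpsa by -1.69. With the arrays centred on the tested genes, 36 members were lower and Rps24 was higher. In that fit 6896 of all 13703 tested genes were higher and 3644 lower.

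After IL-4 with IL-13 nearly all members stayed close to their level in M0. Their median difference between M2 and M0 was 0.01, and 37 of 41 lay within 0.1 of 0, as did 4395 of all 13703 tested genes. The 31 members with a mean above 12 had quartiles of -0.02 and 0.04. The 165 other genes of that brightness had -0.13 and 0.07. Whether probe sets so bright show less of a change was not tested. Rpl12 alone was called higher, none was called lower, and of all tested genes 12.7% were called higher and 18.4% lower. Rpl12 measured 6.19, 6.32 and 6.10 in M0 and 6.65, 6.82 and 6.77 in M2. All 3 M2 arrays were above all M0 arrays, and the difference was 0.54 (SE 0.09, adjusted p = 0.000479), or 1.46-fold. The gene has a single probe set of its own.

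The wide spread of the M1 arrays enters the error of every comparison fitted on all 15 arrays, so the members were fitted again on the 12 arrays other than M1, a choice made after seeing the data. The median standard error then went from 0.112 to 0.0478. In that fit the 95% interval of M2 minus M0 lay within 0.25 of 0 for 37 of 41 members and within 0.5 for 40. Besides Rpl12, Rps18 was called higher by 0.14 (adjusted p = 0.0302) and Rps6 lower by 0.17 (adjusted p = 0.0469, limma). Of all 13703 tested genes, that fit called 2156 higher and 3036 lower. Rps18 measured 12.82, 12.79 and 12.80 in M2 against 12.62 to 12.69 in M0, and Rps6 8.22, 8.15 and 8.30 against 8.35 to 8.46. In both genes the groups did not overlap, as in 6470 of all tested genes, though neither was called on 15 arrays. The 4 measured MDM2-binding members differed by 0.04 to 0.07 and the stalk proteins Rplp0 and Rplp2 by -0.04 and -0.06, none of them called in either fit.

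**Figure D3:**
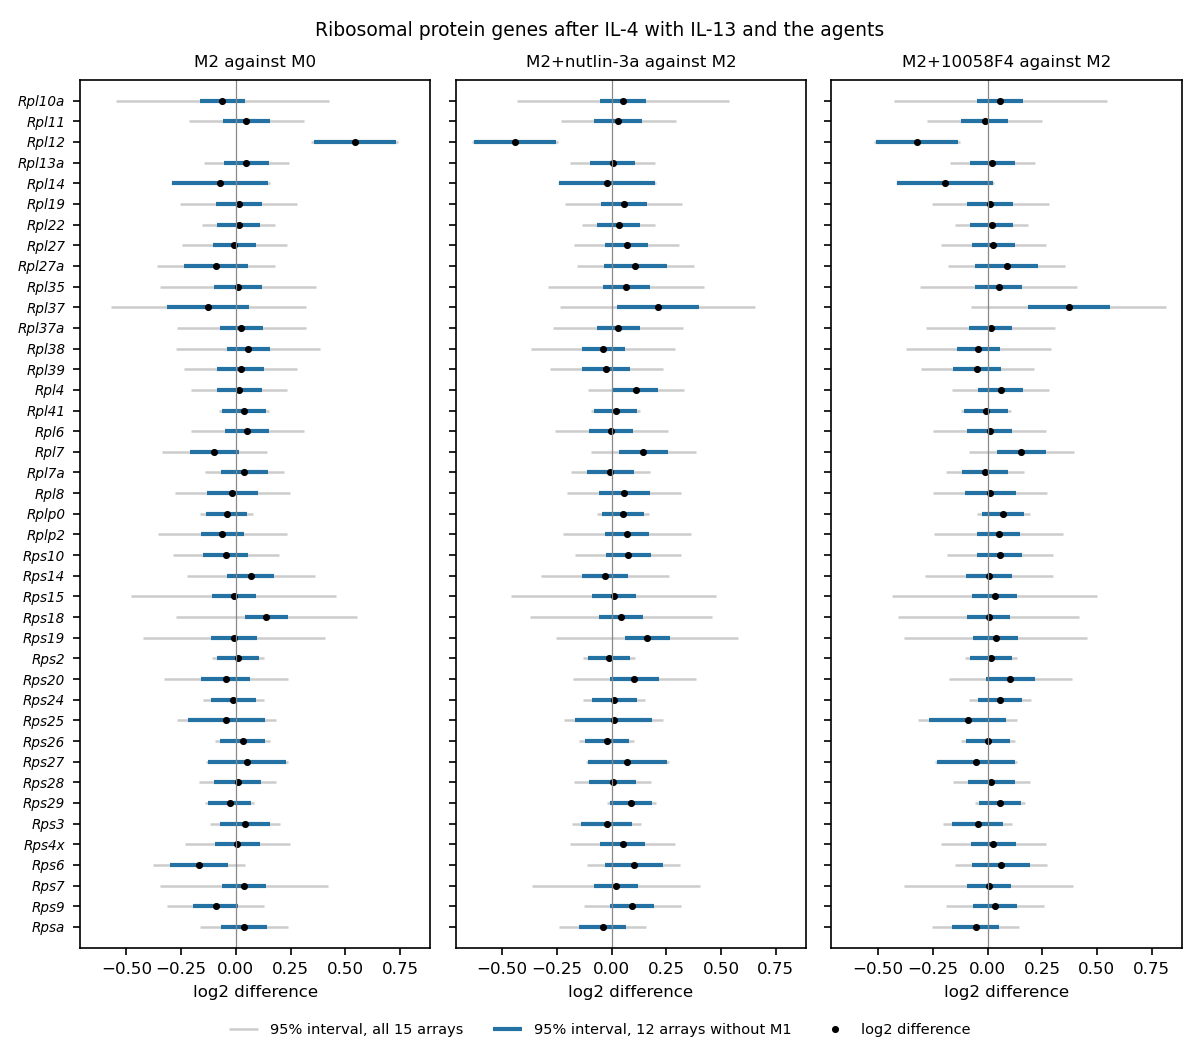
Log2 differences (horizontal axes) of the 41 members, listed down the side, for M2 against M0, nutlin-3a against M2 and 10058F4 against M2; dots are differences, grey lines 95% intervals from all 15 arrays and blue lines those from the 12 arrays other than M1. Rpl12 stands off 0 in all 3 panels, at 0.54, -0.44 and -0.32, and Rpl37 lies at 0.37 in the last.

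With nutlin-3a, too, most members stayed close to their level in M2. Rpl12 was the only member called, and it was lower, with 5.85% of all tested genes called lower and 9.56% higher. Rpl12 measured 6.16, 6.34 and 6.42 with nutlin-3a against 6.65, 6.82 and 6.77 in M2, a difference of -0.44 (SE 0.09, adjusted p = 0.00557). These values lay apart from M2 and among those of M0 or just above them. The members' median difference was 0.03, and 33 of 41 lay within 0.1 of 0, as did 5548 of all tested genes. On 12 arrays the interval lay within 0.25 of 0 for 35 members, and Rps19 was also called, higher by 0.16 (adjusted p = 0.0293, limma). Of all 13703 tested genes, that fit called 1911 higher and 1180 lower. Rps19 measured 12.67, 12.65 and 12.68 with nutlin-3a and 12.56, 12.43 and 12.51 in M2, without overlap, as in 5328 of all tested genes. The MDM2-binding members Rpl11, Rps7, Rps3 and Rps14 differed by -0.03 to 0.03 and none was called; for Rpl11 the 12-array interval ran from -0.08 to 0.14. In the same cells Mdm2 was 1.99 higher (SE 0.09, adjusted p = 7.73e-09) and Cdkn1a 1.70 higher, both known targets of p53.

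With the MYC inhibitor 10058F4 the differences were again small. Rpl12 was the only member called, lower than in M2, with 10.2% of all tested genes called lower and 10.6% higher. It measured 6.31, 6.46 and 6.51, below all 3 M2 arrays, and the difference was -0.32 (SE 0.09, adjusted p = 0.0229). The call was lost without M2 replicate 2 (adjusted p = 0.0841), without M2 replicate 3 (0.0698) and without 10058F4 replicate 1 (0.108, limma). The members' median difference was 0.02. Rpl37, a large-subunit protein, measured 9.33, 9.33 and 9.25 in M2 and 9.74, 9.57 and 9.71 with 10058F4. These groups lay apart, as they did for 6063 of all tested genes. The difference of 0.37 was not called on 15 arrays (adjusted p = 0.243) and was on 12 (adjusted p = 0.00701, limma). Rpl7 was also called on 12 arrays only, 0.15 higher (adjusted p = 0.0406, limma). On these arrays the interval lay within 0.25 of 0 for 36 of 41 members. Of all 13703 tested genes, that fit called 1951 higher and 1860 lower. Myc itself measured 7.50, 7.31 and 7.61 in M2, 7.41, 7.45 and 7.57 with 10058F4 and 6.34, 6.61 and 6.57 with nutlin-3a. It did not differ detectably with 10058F4 (0.00, interval -0.32 to 0.33) and was 0.96 lower with nutlin-3a (adjusted p = 0.000787).

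Set against each other, the 2 agents gave no called member. The median difference of nutlin-3a minus 10058F4 was 0.02, the count at an unadjusted p under 0.05 was 0 on 15 arrays and 1 on 12, and 4.24% of all tested genes were called higher and 2.72% lower. The interval lay within 0.25 of 0 for 36 of 41 members on 12 arrays and within 0.5 for all 41. Rpl12 differed by -0.12 (interval -0.32 to 0.08). The agents' comparisons with M2 share the M2 arrays, so their values stand side by side and are not independent.

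Some ribosomal proteins have a close relative encoded by another gene, and these relatives did not all follow the set. Rps27l, the paralogue of the small-subunit protein Rps27 and a known p53 target, measured 11.37, 11.41 and 11.37 in M2, 12.07, 12.12 and 12.13 with nutlin-3a and 11.36, 11.38 and 11.42 with 10058F4. The nutlin-3a arrays lay above all others, by 0.72 over M2 (SE 0.06, adjusted p = 3.44e-06) and 0.72 over 10058F4 (SE 0.06, adjusted p = 3.22e-06), while 10058F4 against M2 gave 0.00 (interval -0.13 to 0.13). Rps27 itself measured 6.49, 6.37 and 6.48 in M2 and 6.49, 6.46 and 6.60 with nutlin-3a, a difference of 0.07 (interval -0.12 to 0.26). In M1 both were lower than in M0, Rps27l by 0.58 and Rps27 by 0.63.

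Rpl22l1, the paralogue of Rpl22, measured 11.30, 11.32 and 11.27 in M0 and 9.26, 8.29 and 9.08 in M1. The groups lay about 2 log2 units apart, with a difference of -2.42 (SE 0.17, adjusted p = 1.25e-08) where Rpl22 differed by -1.24; the difference between the 2 genes' changes was not tested. Fau, whose product is a ubiquitin-like protein fused to the small-subunit protein Rps30, fell by 0.73 in M1 (adjusted p = 4.89e-05). Rpl7l1, a relative of Rpl7, was 0.27 lower in M1 (adjusted p = 0.00367), a direction that turned with centring on the tested genes, and 0.30 lower with 10058F4 (adjusted p = 0.00675). Rpl39l was not called in any comparison, Rpl3l lay below the filter level, and Rpl36al and Rpl10l were not analysed here.

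**Figure D4:**
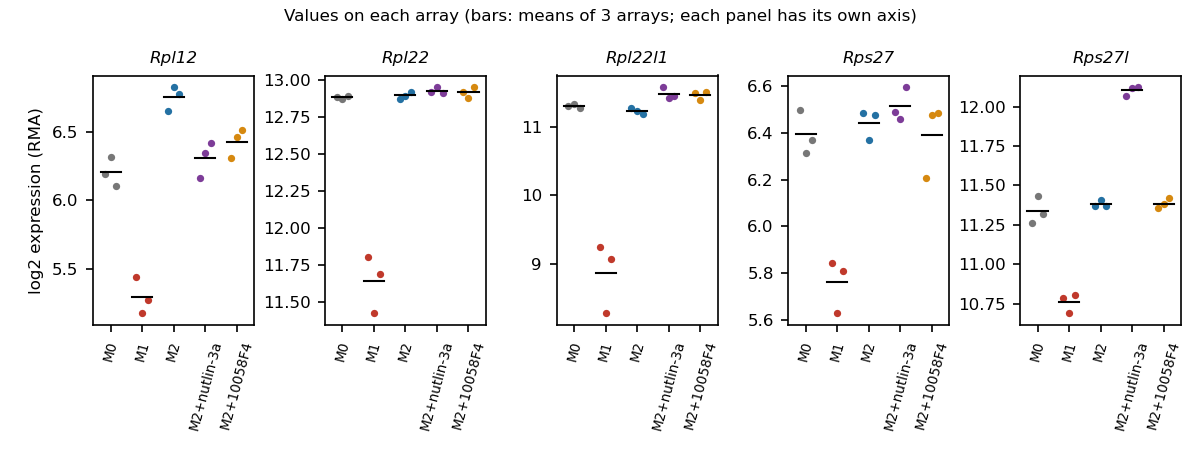
Log2 expression (vertical axes, one per gene) on each array of Rpl12, Rpl22, Rpl22l1, Rps27 and Rps27l in the 5 groups along the horizontal axes, with bars at the mean of 3 arrays. All 5 genes are lowest in M1, Rpl12 is highest in M2, and Rps27l is highest with nutlin-3a at 12.07 to 12.13.

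Genes that make or serve the ribosome were compared with the members, in M1 against the background of 39.1% of tested genes lower and 33.6% higher. Translation factors and other genes with a TOP tract, 1 list of 16, went the same way in M1. Of these, 15 were called lower than in M0 and none higher, with a median of -1.12. Eif4b, which helps the helicase eIF4A at the mRNA's 5' end, fell by 1.65 (adjusted p = 1.44e-11), and the elongation exchange factors differed by -1.57 (Eef1b2) and -1.54 (Eef1d). Of 33 factors of ribosome assembly, 26 were lower and 3 higher, with a median of -0.77. Wdr12, which matures the large subunit's RNA with Pes1 and Bop1, differed by -1.96, Nop58, a core protein of the snoRNPs that guide methylation, by -1.74, and Rrs1 by -1.70. Of 14 genes of RNA polymerase I and its factors, 10 were lower and 1 higher (median -0.33). Of 76 mitochondrial ribosomal proteins, 43 were lower and 14 higher (median -0.26).

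In M2 cells many assembly factors were higher. Of 33 factors 19 were called higher than in M0 and none lower (12.7% and 18.4% of all tested genes), with a median of 0.24, while the members had 1 higher of 41 and a median of 0.01. Nolc1, a nucleolar partner of snoRNPs, measured 7.06, 7.47 and 7.28 in M0 and 8.15, 8.32 and 7.98 in M2. The groups did not overlap and the difference was 0.88 (SE 0.12, adjusted p = 8.66e-05). Fbl, the methyltransferase of ribosomal RNA, was 0.68 higher and Heatr1, of the small-subunit processome, 0.60 higher, the latter not called on its second brightest probe set. Myc was 0.84 higher in M2 than in M0 (adjusted p = 0.000748). The list of TOP-tract translation factors and other TOP-tract genes had none higher and 1 of 16 lower, Nap1l1 (-0.43, not a translation factor), with a median of 0.00.

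With nutlin-3a, 1 of 33 assembly factors was higher and 5 were lower than in M2 (median -0.07), where 9.56% of all tested genes were higher and 5.85% lower. Dkc1, the pseudouridine synthase of ribosomal RNA, fell by 0.45 (adjusted p = 0.00204) and Nop58 by 0.43. With 10058F4, 6 were higher and 4 lower (median -0.04), where 10.6% and 10.2% of all tested genes were, and Gnl3, or nucleostemin, was 0.40 higher (adjusted p = 0.00281). Of the 16 genes of the TOP-tract list, none was called with nutlin-3a and 1 was higher with 10058F4, Hnrnpa1 by 0.42, which is not a translation factor.

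**Figure D5:**
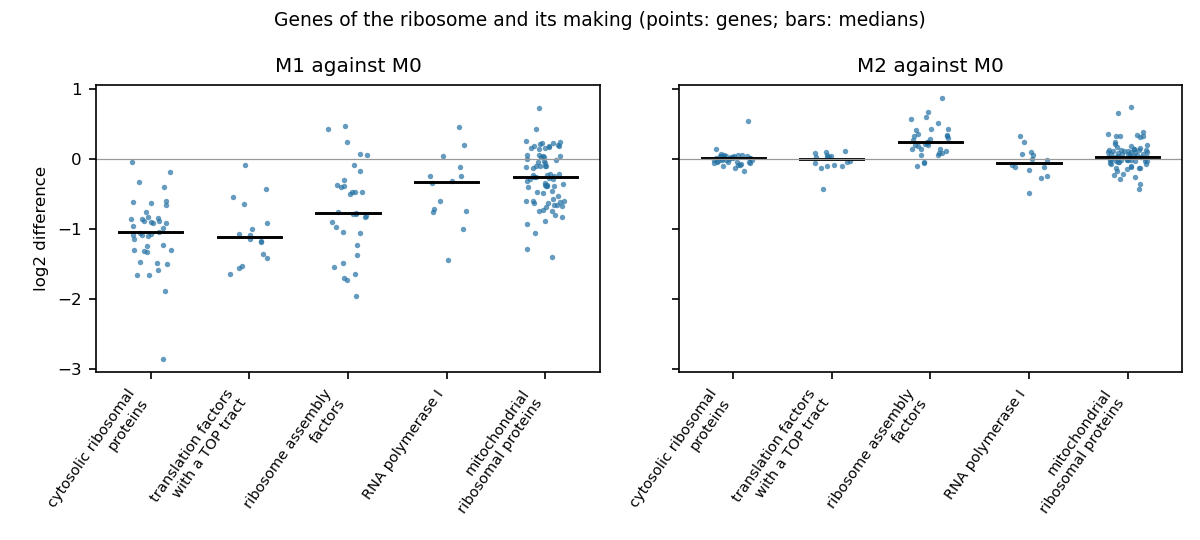
Log2 difference (vertical axis) of each gene in 5 lists (horizontal axis) for M1 against M0 on the left and M2 against M0 on the right; points are genes and bars medians. The second list holds other TOP-tract genes besides translation factors. The medians on the left are -1.04, -1.12, -0.77, -0.33 and -0.26 from left to right, and on the right only the assembly factors' bar, at 0.24, stands clear of 0.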

How the data were processed

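Total RNA from 15 macrophage cultures was read on one-colour arrays of biotin-labelled cRNA. The table deposited by the authors holds a log2 value for each probe set and array, from RMA according to the submitters' processing notes, with no version given; RMA gives all arrays nearly 1 distribution, so a shift of most genes one way would be hidden. Of 45101 probe sets, 64 were controls, 34945 named 1 gene, 932 several and 9160 none. Each gene was represented by its brightest own probe set (mean of 15 arrays), and tested if it exceeded the 40th percentile of the array's probe sets on 3 arrays or more. Symbols were updated through RefSeq's table of GRCm38.p6. Groups came from the sample titles.

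Contrasts were fitted with limma 3.58.1 (R 4.3.3) on 5 group means, with 10 residual and 3.86 prior degrees of freedom; arrays have no depth, and their number limits the precision. The fit was tested on simulated data: of 50 genes changed 1.6-fold among 13703, 84% were called for M1 against M0, 86% for nutlin-3a and 92% for 10058F4 against M2. Of 50 changed 1.2-fold, 22%, 14% and 16% were called in the same comparisons. The simulated noise of a gene had the same spread in all groups. The members spread more in M1 than elsewhere, so these shares do not describe them. The members, the gene lists and the tests were chosen with earlier results of these data known. Named members were up to 4 with the largest rise and fall among called members without overlap in each comparison, and those of the role lists (MDM2 binding, stalk, regulated or moonlighting); other lists are named by up to 3 called genes. Genes outside this rule are named where they complete a range or stand apart.

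To see whether replicate numbers pair the arrays, the deviations of equal numbers from their group means were correlated over genes. The lowest r was 0.232 (M2, M0), 0.337 (nutlin-3a, M2), 0.308 (10058F4, M2), 0.341 (the 2 agents), 0.055 (M1, M0) and 0.0635 (M1, M2), with pairing taken as r above 0.1 throughout. Alternatives were other filters, probe-set choices, centring, repeated quantile normalization, array weights, trended and robust eBayes, the replicate block, 2 groups alone, each array left out, and, added after seeing the data, the 12 arrays other than M1 and centring on the tested genes.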

Additional observations from a re-analysis of the deposited data

How the results depend on the processing

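The members' median difference in M1 against M0 and M2 stayed below 0 under every alternative run. Against M0, 34 of 36 tested members were lower with probe sets of shared sequence by suffix left out. With the second brightest probe set 34 of 39 were lower, and with probe sets averaged 38 of 41. Of all genes, these fits called 5194, 4393 and 5074 lower and 4476, 3955 and 4231 higher. With the arrays recentred 35 to 39 of 41 were lower (of all genes, 3505 to 5776), and 39 under the replicate block (5461). The count called higher in M1 against M0 went from 0 to 1 with no filter (Rps16), with the second brightest probe set and with arrays centred on the tested genes, and in M1 against M2 from 0 to 1 with the latter 2. In M2 against M0, 2 members were higher and 1 lower on the 12 arrays other than M1, and 1 was lower when probe sets were averaged, and 1 when those with shared sequence by suffix were left out. With nutlin-3a, 1 was higher on the 12 arrays. With 10058F4, 1 was higher with array weights and on the arrays of the 2 groups alone, 2 on the 12 arrays, and leaving out each array in turn gave 0 to 1 lower. The replicate block changed no member's call (1 higher in M2, 1 lower with each agent).

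Over single genes, all tested members included, 6683 results kept their side of the threshold with no called value turning, 90 lost the call, 31 gained it and 11 turned. With arrays centred on the tested genes, Rpl7l1 turned to 0.0601, Rps29 to 0.0027 and Rps24 to 0.281 in M1 against M0, and Rps24 to 0.208 in M1 against M2. With the second brightest probe set, Rps4x turned to 0.217 in M1 against M0 and 0.253 in M1 against M2, Rps9 to 0.349 and 0.703, Mrpl54 turned to 0.0058 and Sesn1 to 0.0736 for 10058F4 against M2, and Mrpl17 to -0.0135 for nutlin-3a against 10058F4. The cause was not tested. Signal over background limits Rps16, and the members at log2 values of 5 to 7 (Rpl12, Rpl14, Rpl39, Rps27) lie nearest to it.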

Other observations

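Probe sets that name several genes, at least 1 of them a ribosomal protein gene, cover 27 genes the report could not name singly. Of 110 such probe sets 103 were tested, and 96 were called lower in M1 than in M0 and 3 higher, with a median of -1.12, where 37.5% of all tested probe sets were lower. Among the members' own 94 probe sets, the 3 called higher in M1 belong to Rps10, Rps3 and Rps4x, average 4.42, 5.01 and 5.29, and stand beside brighter probe sets of the same genes that were lower by 0.92, 0.88 and 0.99.

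Regulators of translation moved in both directions. In M1 against M0, 6 of 18 were higher and 8 lower (median -0.02), where 33.6% and 39.1% of all tested genes were. Sesn1, which restrains mTOR complex 1 when leucine is low, fell by 3.89 (adjusted p = 5.78e-15, limma). Eef2k, the kinase that slows elongation, fell by 2.85, and Deptor, an mTOR inhibitor, by 1.98. Others of the list rose. The means in M0 and M1 were 5.85 and 6.72 for Ddit4, another inhibitor of mTOR complex 1. They were 9.58 and 10.18 for Eif4ebp1, and 8.55 and 9.06 for Larp1. With nutlin-3a, 4 of the 18 were higher than in M2 and 1, Sesn1, was lower, where 9.56% and 5.85% of all tested genes were. With 10058F4, 5 were higher and 2, Sesn1 and Sesn3, were lower, where 10.6% and 10.2% of all tested genes were. Ddit4 was higher than in M2 with nutlin-3a by 2.52 (adjusted p = 1.05e-07) and with 10058F4 by 2.75 (adjusted p = 3.11e-08, limma). Sesn2 was 1.09 higher with nutlin-3a and 1.07 higher than with 10058F4 (adjusted p = 3.98e-06). Of 76 mitochondrial ribosomal proteins, 12 were lower and 2 higher with 10058F4 than in M2 (median -0.11), where 10.2% and 10.6% of all tested genes were. With nutlin-3a 1 was lower and 3 were higher (median 0.01), where 5.85% and 9.56% of all genes were. Between the agents 4 were higher with nutlin-3a and none lower, with a median of 0.11, where 4.24% and 2.72% of all genes were. Rrn3, an initiation factor of RNA polymerase I, was 0.42 higher with nutlin-3a than in M2 and 0.46 higher than with 10058F4 (adjusted p = 0.000874).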
